A study of Mus musculus with 4 samples.

Results

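Heat shock genes of the cytosol and of the mitochondrial matrix were followed in eye tissue of myocilin transgenic and control mice. Myocilin is a secreted glycoprotein linked to glaucoma. The heat shock genes are the cytosolic HSP70 genes Hspa1a, Hspa1b and Hspa8, the HSP110 gene Hsph1, the J-domain genes Dnajb1 and Dnaja1, the HSP90 gene Hsp90aa1, the small heat shock protein gene Hspb1, and the mitochondrial chaperonin genes Hspd1 and Hspe1. All probe sets whose platform annotation gave 1 of these 10 symbols and no other were taken, which were 25 of the 45101 probe sets on the array, and each of the 10 genes, of 18193 with such a probe set, had at least 1. A probe set is a group of short oligonucleotides that together report 1 transcript or a few related ones.

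Total RNA from tissue labelled retina was hybridised to 4 one-colour Affymetrix arrays. There were 2 arrays of transgenic animals with, per the labels, myocilin in the aqueous humor, and 2 of control animals. Control array 2 is given as a technical repeat of control array 1, so both were averaged into 1 control sample, and the labels do not tell whether each transgenic array had its own animals. The strain, age, number of pooled animals and promoter of the transgene are not given in the sources used here, and the gene of the transgene was not analysed here.

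Heat shock proteins are chaperones that hold, fold or disaggregate other proteins. In the cytosol, J-domain proteins deliver unfolded clients to HSP70 and stimulate its ATPase, HSP110 exchanges the nucleotide, and HSP90 takes over some clients for late folding steps. Small heat shock proteins bind unfolding proteins without ATP, while in mitochondria the HSP60 barrel and its HSP10 lid fold imported proteins. Under proteotoxic stress, heat shock factors bind inverted repeats of GAA units, the heat shock elements, and induce many of these genes. Hspa8 is a largely constitutive HSP70 gene, whereas Hspa1a and Hspa1b are the strongly inducible ones.

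Upstream sequence is shown first for Hspa1a and Hspa1b, neighbouring genes whose heat-inducible proteins are nearly identical. Their transcripts and probes were not compared here. RefSeq (GRCm38.p6) gave promoter windows for 8 of the 10 genes, and the 250 bases before each annotated start were searched. Both copies lie on the minus strand of chromosome 17, Hspa1a at chr17:34972157-34972406 and Hspa1b at chr17:34959239-34959488, and their sequences are printed 5′ to 3′ with the heat shock element match in capitals.
Hspa1a: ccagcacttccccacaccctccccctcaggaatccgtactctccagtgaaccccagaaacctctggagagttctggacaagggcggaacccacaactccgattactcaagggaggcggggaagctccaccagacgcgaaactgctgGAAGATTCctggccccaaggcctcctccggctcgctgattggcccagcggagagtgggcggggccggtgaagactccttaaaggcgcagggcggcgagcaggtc
Hspa1b: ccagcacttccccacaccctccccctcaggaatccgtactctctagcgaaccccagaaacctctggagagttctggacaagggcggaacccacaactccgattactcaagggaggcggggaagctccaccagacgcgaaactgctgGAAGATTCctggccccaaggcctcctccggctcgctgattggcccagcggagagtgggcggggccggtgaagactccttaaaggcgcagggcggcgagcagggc
Over these 250 bases the copies differed at 3 positions and were 98.8% identical. Counted from 1 at the 5′ end, with the Hspa1a base first, the differences were C44T, T47C and T249G.

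Matches were sought to GAANNTTC and TTCNNGAA, which hold 2 inverted units, and to GAANNTTC followed by NN and a further GAA, which holds 3 alternating units and contains both shorter motifs, on both strands. Among the 32851 windows of the same length in the RefSeq table, 12.8% held either short motif and 0.466% the long one. A short match was present in 8 of the 13 windows of these genes, which belong to 7 of the 8 genes, and the long motif in a window each of 2 genes, Hspd1 and Hspe1. Windows of Hspd1 and Hspe1, and those of Hsph1, overlap and share their matches, so these windows are not independent. Nor are those of Hspa1a and Hspa1b, which are 98.8% identical and hold the same match. Hspd1 and Hspe1 lie head to head on chromosome 1. Of 2 annotated Hspd1 starts 1 lies before the Hspe1 start and the other past it. The 215 bases between the Hspd1 start that lies before it and the Hspe1 start are printed on the plus strand (chr1:55087933-55088147, in the direction of Hspe1), with the overlapping matches in capitals.
Hspd1 and Hspe1: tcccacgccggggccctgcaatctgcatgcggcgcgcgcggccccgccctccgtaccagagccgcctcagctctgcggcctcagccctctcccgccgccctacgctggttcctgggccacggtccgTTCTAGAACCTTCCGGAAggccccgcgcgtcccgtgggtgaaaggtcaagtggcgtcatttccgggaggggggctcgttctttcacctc
The capitals end 72 bases before the Hspe1 start and form 4 alternating units in a row. For Dnaja1, Hspb1 and Hsph1, 30 bases around each short match are given, with the match in capitals.
Dnaja1: aaaagcctctaGAAAATTCtacgaggctcg
Hspb1, farther from the start: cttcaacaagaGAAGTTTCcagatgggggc
Hspb1, nearer to the start: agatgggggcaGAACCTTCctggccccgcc
Hsph1: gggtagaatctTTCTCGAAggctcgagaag
The Dnaja1 stretch lies at chr4:40722333-40722362 on the plus strand, those of Hspb1 at chr5:135887791-135887820 and chr5:135887811-135887840 on the plus strand, and that of Hsph1 at chr5:149636351-149636380 on the minus strand. The windows of Dnajb1 held none of these letter patterns. A match of letters is a description of the window and was not tied to binding or to the signals below.

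**Figure D1:**
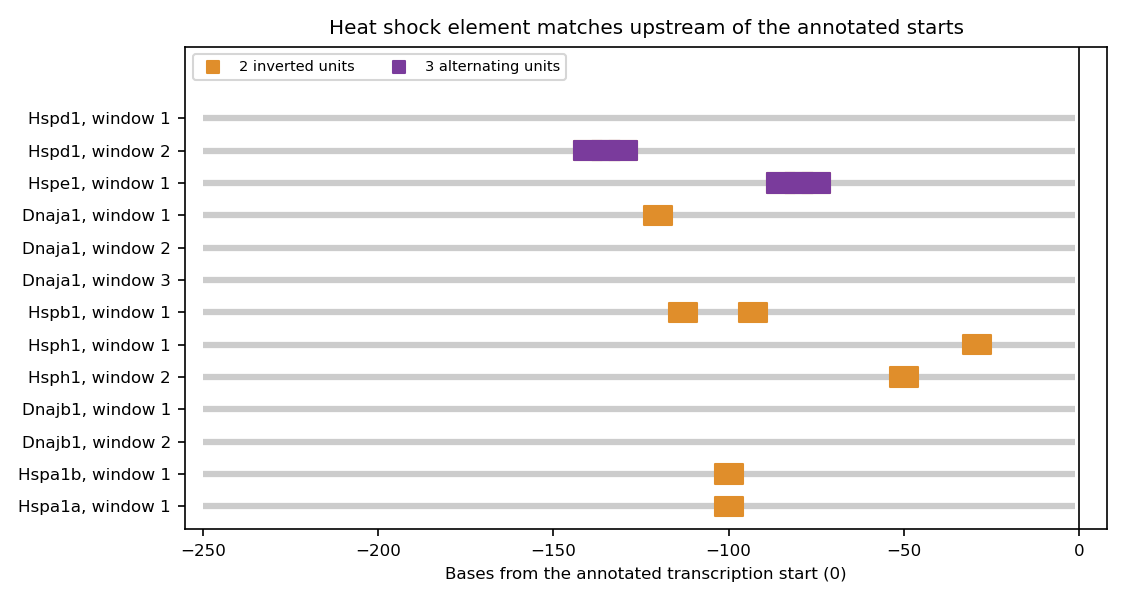
Position of heat shock element matches (bars) in the 250 bases before each annotated start (grey lines; x axis in bases from the start), with several windows where RefSeq lists several starts. Bars of 3 alternating units occur in a window of Hspd1 and in that of Hspe1, matches of 2 inverted units in Dnaja1, Hspb1, Hsph1, Hspa1a and Hspa1b, and none in Dnajb1.

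The deposited values were linear signals with a trimmed mean of 150 on every array and medians of 47.1 and 49.5 on transgenic and 49.0 and 50.3 on control arrays. Despite the label retina, rod photoreceptor genes were dim, with 0 of 9 markers above a mean signal of 150 and summed signals of 350.5 and 264 on transgenic and 331 and 339 on control arrays. Of bipolar, amacrine and ganglion cell markers 1 of 9 exceeded that level, with sums of 668 and 612 on transgenic and 826 and 806 on control arrays. Of Mueller glia markers 4 of 7 did, with sums of 16004 and 16124 on transgenic and 14405 and 14412 on control arrays. Those 4 were Glul, Apoe, Vim and Rlbp1, while Aqp4, Slc1a3 and Kcnj10 lay under that level. Corneal epithelium exceeded that level for 5 of 5 markers, with sums of 42246 and 45673 on transgenic and 41569 and 41268 on control arrays. Skeletal muscle did for 10 of 10 markers, with sums of 21885 and 21738 on transgenic and 13325 and 13601 on control arrays. Pigmented cell sums were 36675 and 39633 on transgenic and 31787 and 31746 on control arrays, with 9 of 10 markers above that level. Fibroblast sums were 29172 and 29117 on transgenic and 23091 and 21766 on control arrays, with 7 of 7 above it. Lens sums were 656 and 642 on transgenic and 199 and 232 on control arrays, with 0 of 11 above it. Spiked-in poly-A controls stood higher on each transgenic array than on either control array for 18 of 27 probe sets, against 21.1% of all probe sets tested. Their median log2 difference was 0.24, and probe sets of the same spiked-in transcript are not independent. Of 9 hybridisation control probe sets 0 stood higher on both transgenic arrays and 1 lower, with a median of −0.01. Their median log2 difference was 0.37 for transgenic array 2 minus array 1, and 0.02 for control array 2 minus array 1. For the poly-A controls these medians were 0.07 and 0.10. The part of these shifts in the values below was not tested. In such bulk tissue, fewer cells of a type and less RNA per cell cannot be told apart.

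As deposited, signals of Hspa1a and Hspa1b were lower on both transgenic arrays, those of Hsp90aa1, Dnaja1 and Hspd1 were higher on both, and Hspa8 overlapped between the groups, but none of these differences passed the test. Differences are transgenic minus control on the log2(signal + 16) scale, tested with limma over the 27022 probe sets whose mean lay above the 40th percentile. Of the 25 heat shock probe sets, 23 were tested. None passed at an adjusted p of 0.05 (0 of 23), against 0.0777% of all probe sets tested (0.0555% higher and 0.0222% lower), and the adjusted p ran between 0.393 and 0.993. An unadjusted p under 0.05 was reached by 7 of 23, with 5 higher and 2 lower, against 7.06% of all probe sets, 4.14% higher and 2.92% lower. Those 7 probe sets belong to 5 genes and share targets, and with each gene taken by its brightest probe set the count was 2 of 10 genes, against 8.06% of all genes tested. The groups did not overlap for 16 of 23 probe sets, 10 higher and 6 lower, against 44.7% of all probe sets, 21.1% higher and 23.6% lower. By brightest probe set the groups did not overlap for 5 genes higher and 3 lower of 10, 8 in all, against 22.8%, 24% and 46.8% of all genes, in that order. With 1 control sample an exact permutation test over samples cannot give a p under 0.333, so none was made.

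**Figure D2:**
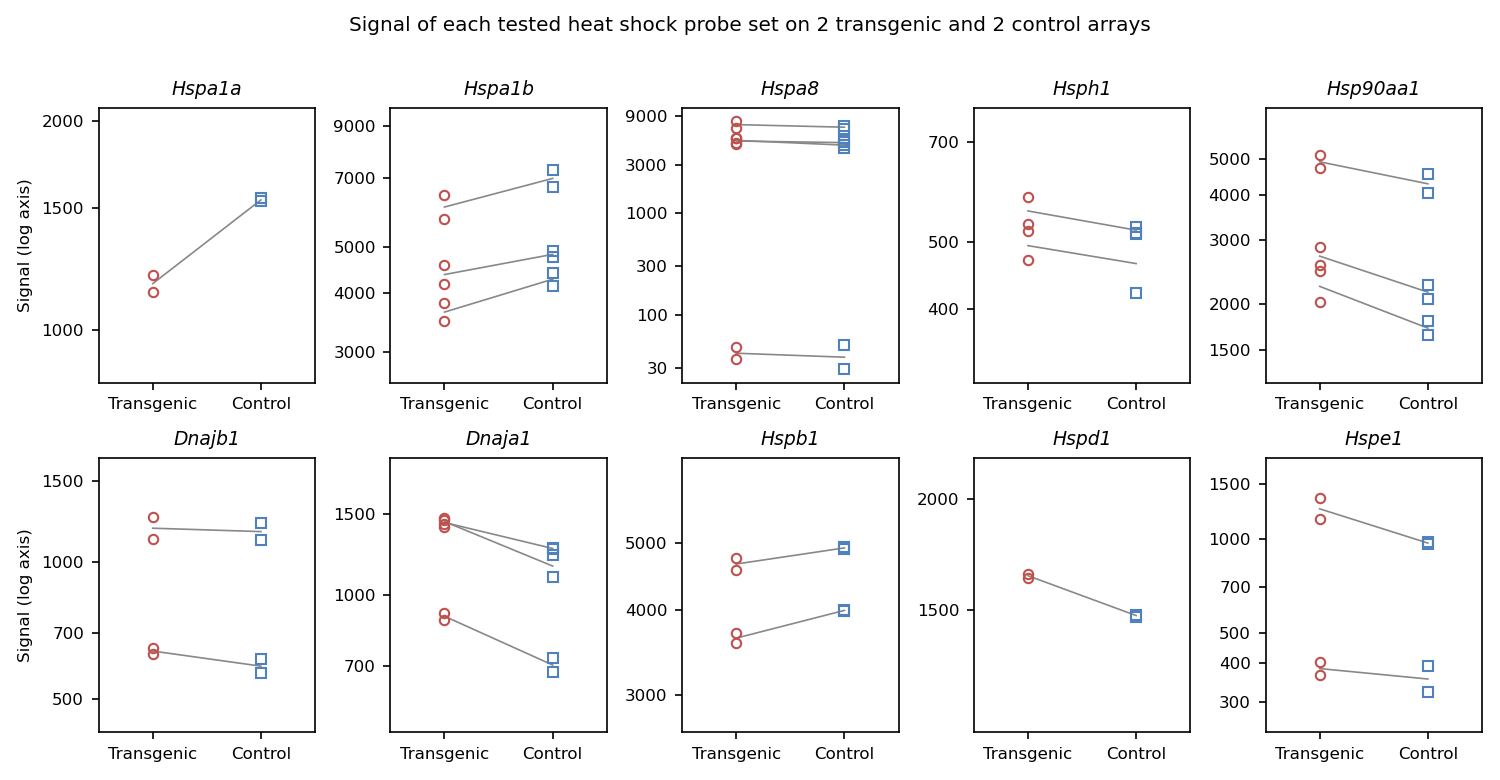
Signal (y axis, log scale) of each tested probe set of the 10 genes on the 2 transgenic (circles) and 2 control (squares) arrays; lines join the geometric means of the groups. The Hspa1a signals of 1199 and 1134 on transgenic arrays lie under those of 1546 and 1532 on control arrays, and the bright Hspa8 probe sets overlap.

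Hspa1a, an inducible cytosolic HSP70, had signals of 1199 and 1134 on the transgenic arrays, against 1546 and 1532 on the control arrays. The groups did not overlap, and the gap was wider than the spread within either of them. The difference was −0.40 ± 0.11 (log2, SE), with a 95% interval from −0.63 to −0.16 and an adjusted p of 0.393 in limma, a ratio of 0.760 on this scale. The log2 difference between the transgenic arrays was −0.08 and that between the control arrays −0.01.

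Hspa1b, its neighbour, was measured by 3 bright probe sets, all lower on both transgenic arrays. The brightest, 1452318_a_at, gave 5732 and 6448 on transgenic arrays, against 6695 and 7293 on control arrays. Probe set 1427126_at gave 3494 and 3808 on transgenic arrays, against 4150 and 4413 on control arrays. Probe set 1427127_x_at gave 4187 and 4577 on transgenic arrays, against 4758 and 4903 on control arrays. In each case the lower control array stood above the higher transgenic array, although by little on 1452318_a_at and 1427127_x_at. The log2 differences were −0.20 ± 0.10, −0.23 ± 0.10 and −0.14 ± 0.10 (SE), in that order, with adjusted p of 0.762, 0.678 and 0.852 in limma. Transgenic array 2 was nearer to the controls than transgenic array 1 on all 3, the reverse of Hspa1a. After quantile normalization 1452318_a_at stood at −0.39 (adjusted p = 0.0588 in limma) and 1427127_x_at at −0.25, and with each array left out 1427127_x_at ran from −0.21 to −0.077. Probe sets ending in _x_at contain oligonucleotides that can match other transcripts, and how far these signals belong to 1 gene of the pair was not tested.

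Hspa8, the constitutive HSP70 that also uncoats clathrin vesicles, had among the brightest signals of these genes. Probe set 1455789_x_at gave 6871 and 8040 on transgenic arrays, against 6776 and 7249 on control arrays. On 1420623_x_at the signals were 4913 and 5503 on transgenic arrays, against 4329 and 5035 on control arrays. On 1420622_a_at they were 4788 and 5479 on transgenic arrays, against 4686 and 5210 on control arrays. The groups overlapped on all 3, and on the dim 1431182_at with 48.1 and 36.2 on transgenic and 28.9 and 50.3 on control arrays. The log2 differences ran from 0.05 to 0.15, with adjusted p between 0.833 and 0.991. After quantile normalization 2 of the bright probe sets changed sign, 1455789_x_at to −0.12, where it was lower on both transgenic arrays, and 1420622_a_at to −0.079, and 1420623_x_at stood at 0.033. For 1455789_x_at the 95% interval of the difference ran from −0.15 to 0.32, so differences of either sign up to those bounds were not resolved.

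Hsph1, the HSP110 that exchanges nucleotide on HSP70 and helps it to dissolve aggregates, differed little. Probe set 1425993_a_at gave 531 and 581 on transgenic arrays, against 526 and 516 on control arrays. The other, 1423566_a_at, gave 519 and 471 on transgenic arrays, against 422 and 514 on control arrays, where the groups overlapped. The log2 differences were 0.09 ± 0.13 and 0.08 ± 0.14 (SE), with adjusted p of 0.956 and 0.962 in limma, and the interval of the first ran from −0.20 to 0.38.

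Of the J-domain genes, Dnaja1 was higher on both transgenic arrays on all 3 of its probe sets, and Dnajb1 on 1 of its 2. Dnaja1, a farnesylated HSP40 of the cytosol, had 1427 and 1456 on transgenic arrays of probe set 1416288_at, against 1094 and 1218 on control arrays. On 1460179_at it had 884 and 914 on transgenic arrays, against 680 and 731 on control arrays. On 1459835_s_at, a kind of probe set that can also report related transcripts, it had 1469 and 1402 on transgenic arrays, against 1255 and 1266 on control arrays. The transgenic arrays stayed close together, and the groups did not overlap on any of the 3. The log2 differences were 0.32 ± 0.11, 0.34 ± 0.12 and 0.18 ± 0.11 (SE), with adjusted p of 0.531, 0.531 and 0.803 in limma. Dnajb1, the main heat-inducible HSP40, had 1252 and 1121 on transgenic arrays of its brighter probe set 1416755_at, against 1214 and 1118 on control arrays. There the groups overlapped and the difference was 0.02 ± 0.12, with an interval from −0.23 to 0.28. On 1416756_at it had 648 and 628 on transgenic arrays, against 572 and 612 on control arrays, and the groups did not overlap. That difference was 0.11 ± 0.12 (adjusted p = 0.935 in limma).

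Hsp90aa1, the inducible cytosolic HSP90, was higher on both transgenic arrays, as deposited, on its 3 tested probe sets. Probe set 1438902_a_at gave 4724 and 5127 on transgenic arrays, against 4033 and 4547 on control arrays. Probe set 1426645_at gave 2871 and 2557 on transgenic arrays, against 2250 and 2068 on control arrays. Probe set 1437497_a_at gave 2468 and 2029 on transgenic arrays, against 1796 and 1643 on control arrays. The groups did not overlap on these 3 as deposited, but the first overlapped after quantile normalization, where its difference was 0.095. The log2 differences were 0.20 ± 0.10, 0.33 ± 0.11 and 0.38 ± 0.12 (SE), with adjusted p of 0.745, 0.508 and 0.505 in limma. The remaining 2 probe sets lay under the filter and are given as levels only, with 30.8 and 19.9 on transgenic and 7.72 and 12.8 on control arrays for 1441827_x_at, and 25.7 and 32.9 on transgenic and 19.8 and 13.1 on control arrays for 1433251_at.

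Hspb1, the small heat shock protein HSP25 of the mouse, was slightly lower on both transgenic arrays as deposited. Probe set 1422943_a_at gave 4749 and 4570 on transgenic arrays, against 4907 and 4927 on control arrays. Probe set 1425964_x_at gave 3693 and 3578 on transgenic arrays, against 3981 and 3997 on control arrays. The control arrays agreed within 0.01 on the log2 scale, and the transgenic ones differed by 0.06 and 0.05 in size. The differences of −0.08 ± 0.09 and −0.13 ± 0.10 (log2, SE) did not pass, with adjusted p of 0.943 and 0.857 in limma. They stood at −0.20 and −0.22 after quantile normalization, and after median centring the groups overlapped on 1422943_a_at, at −0.047.

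In the mitochondrial pair, Hspd1, which encodes the HSP60 subunit of the folding barrel, had 1649 and 1630 on transgenic arrays, against 1474 and 1482 on control arrays. Arrays of each group agreed closely and the groups did not overlap, with a difference of 0.15 ± 0.10 (log2, SE; adjusted p = 0.853), or 0.082 after quantile normalization. Hspe1, the HSP10 lid that shares its upstream stretch with Hspd1, had 1352 and 1157 on transgenic arrays of probe set 1450668_s_at, against 976 and 966 on control arrays. This difference was 0.36 ± 0.12 with an interval from 0.09 to 0.63 (adjusted p = 0.539). Its dimmer probe set 1422579_at gave 402 and 366 on transgenic arrays, against 391 and 323 on control arrays, where the groups overlapped and the difference was 0.11 ± 0.14. Both probe sets of Hspe1 stood above 0, but they differed in size, and an _s_at probe set can report related transcripts.

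**Figure D3:**
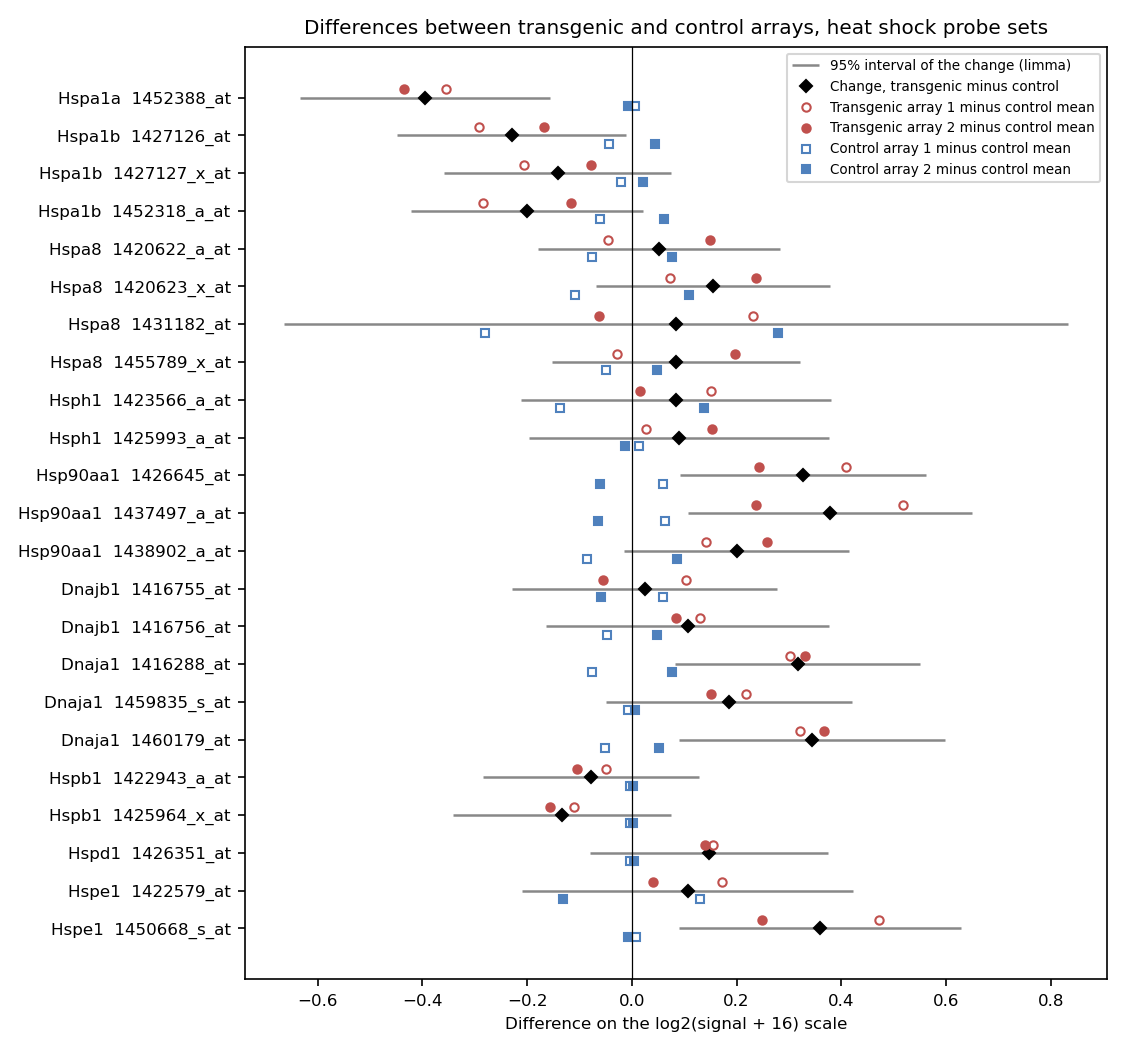
Difference between groups on the log2(signal + 16) scale (x axis) for the 23 tested probe sets: diamonds are transgenic minus control with their 95% interval in limma, circles single transgenic arrays and squares single control arrays, each minus the control mean. In the values as deposited, both circles lie left of both squares for Hspa1a, Hspa1b and Hspb1 and right of them for Hsp90aa1, Dnaja1 and Hspd1, though 1 probe set each of Hsp90aa1 and Hspb1 overlapped under another scaling, and no difference passed the adjusted test.

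With each of the 10 genes taken by its brightest tested probe set, 7 stood above 0 and 3 below, and the median log2 difference was 0.09, against −0.01 over all 12722 genes tested. After quantile normalization 5 stood above 0 and 5 below, with a median of 0.032, since Hspa8 and Dnajb1 turned. The median was 0.06 on transgenic array 1 and 0.15 on transgenic array 2, each against the control mean, and the median difference between the control arrays was 0.01. The genes did not share a direction: Hspa1a, Hspa1b and Hspb1 stood below 0 and Hsp90aa1, Dnaja1, Hspd1, Hspe1 and Hsph1 above 0 under both. The signal of 22 of the 23 probe sets lay at percentile 87.7 or above of all probe sets. No test of the list was made.

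Other genes of the same folding systems showed no called change, in limma over all probe sets tested, in any of the lists that follow. Of the heat shock factors and their binding protein, 2 of 4 listed genes were tested. Hsf4, a heat shock factor needed in the lens, had 45.7 and 42.6 on transgenic arrays, against 63.1 and 48.3 on control arrays, a difference of −0.25 ± 0.31. Hsbp1, which binds heat shock factor 1, had 1425 and 1334 on transgenic arrays, against 1143 and 1245 on control arrays, a difference of 0.21 ± 0.11 (adjusted p = 0.776).

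Among other HSP70 and HSP110 genes, apart from those of the mitochondrial and endoplasmic reticulum lists below, 0 of 6 tested genes passed. Of these 3 stood above and 3 below 0, with a median of 0.07. Hspa4, an HSP110 relative, stood at −0.39 ± 0.19 on its brightest probe set, where the arrays scattered between 907 and 596 in transgenic and between 1184 and 798 in control samples. Another probe set of Hspa4 stood at 0.33 ± 0.12, with 649 and 662 on transgenic arrays, against 487 and 553 on control arrays, so its probe sets disagreed in direction. Hspa12a stood at −0.25, Hspa14 at 0.24 and Hspa13 at 0.22.

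Other J-domain genes had a median of −0.03, with 0 of 10 called, 4 above 0 and 6 below. Dnajc5, the J-protein of synaptic vesicles, had 506 and 437 on transgenic arrays, against 540 and 573 on control arrays, a difference of −0.23 ± 0.14. Dnajb6, a suppressor of protein aggregation, stood at 0.16, Dnajc7 at 0.15 and Dnaja2, the close relative of Dnaja1, at 0.10.

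HSP70 exchange factors and cofactors had a median of −0.02, with 0 of 8 called. Bag3, a heat-inducible exchange factor that works with small heat shock proteins, had 220 and 183 on transgenic arrays, against 263 and 239 on control arrays. The groups did not overlap, and the difference of −0.30 ± 0.18 had an adjusted p of 0.805 in limma. Bag5 stood at 0.20, Bag4 at −0.17 and Bag1 at 0.12.

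Of the other HSP90 genes and HSP90 co-chaperones, 7 of 10 were tested, 0 were called, and the median was 0.07. Fkbp5, an immunophilin of the HSP90 complex that glucocorticoids induce, had 164 and 155 on transgenic arrays, against 209 and 336 on control arrays. Its difference was −0.68 ± 0.18 (adjusted p = 0.363), and a second probe set, with 38.5 and 45.5 on transgenic and 97.3 and 79.4 on control arrays, stood at −0.84 ± 0.30 (adjusted p = 0.565). Both probe sets were lower on both transgenic arrays, while the control arrays of the first differed widely. Fkbp4, its relative, stood at 0.18, Chordc1 at 0.16 and Cdc37, which brings kinases to HSP90, at 0.08.

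The 6 listed small heat shock protein genes, without Hspb1 and the lens marker Cryaa, had the highest median of the folding lists, 0.30, and 0 were called. On both transgenic arrays 5 of the 6 stood higher, against 22.8% of all genes tested. Cryab, the alpha-B crystallin of muscle and lens, had 2819 and 2792 on transgenic arrays, against 2378 and 2250 on control arrays, a difference of 0.28 ± 0.10 (adjusted p = 0.565). Hspb6, known from muscle, had 503 and 549 on transgenic arrays, against 409 and 424 on control arrays, a difference of 0.33 ± 0.13. Hspb2, also a muscle gene, had 174 and 172 on transgenic arrays, against 122 and 124 on control arrays, a difference of 0.45 ± 0.19. The muscle gene Hspb3 stood at 0.52 ± 0.27, with 76.8 and 106 on transgenic arrays, against 60.1 and 56.6 on control arrays. By brightest probe set Hspb8 stood at 0.21, and Hspb7, whose groups overlapped, at −0.095. These values stand beside the skeletal muscle sums of 21885 and 21738 on transgenic and 13325 and 13601 on control arrays. Of the 10 skeletal muscle markers 9 stood above 0 and 1 below. The lens sums are given above, and the part of muscle or lens in these values was not tested.

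Other mitochondrial chaperones and proteases had a median of 0.09 with 0 of 12 called. Hspa9, the mitochondrial HSP70, had 1132 and 1157 on transgenic arrays, against 1020 and 1023 on control arrays, a difference of 0.16 ± 0.11, but a second probe set stood at −0.14 ± 0.12. Grpel1, its nucleotide exchange factor, stood at 0.14 and Hscb at 0.16. Yme1l1, an inner membrane protease, stood at 0.47 ± 0.12 (adjusted p = 0.347) with 806 and 849 on transgenic arrays, against 519 and 680 on control arrays, while another bright probe set stood at −0.03.

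The cytosolic chaperonin TRiC, a ring that folds actin and tubulin, and prefoldin, which hands it these clients, had a median of 0.10. Of 13 genes 12 stood above 0, 10 of them higher on both transgenic arrays, against 22.8% of all genes tested, and 0 were called. Pfdn4 had 556 and 573 on transgenic arrays, against 337 and 434 on control arrays, a difference of 0.54 ± 0.13 (adjusted p = 0.303). Pfdn5 stood at 0.30 ± 0.10 with a second probe set at 0.27 ± 0.10, Vbp1 at 0.19 and the TRiC subunit Cct5 at 0.19. The median of the poly-A controls, 0.24, was larger than that of this list and than that of the 10 heat shock genes, 0.09. Its part in either was not tested.

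**Figure D4:**
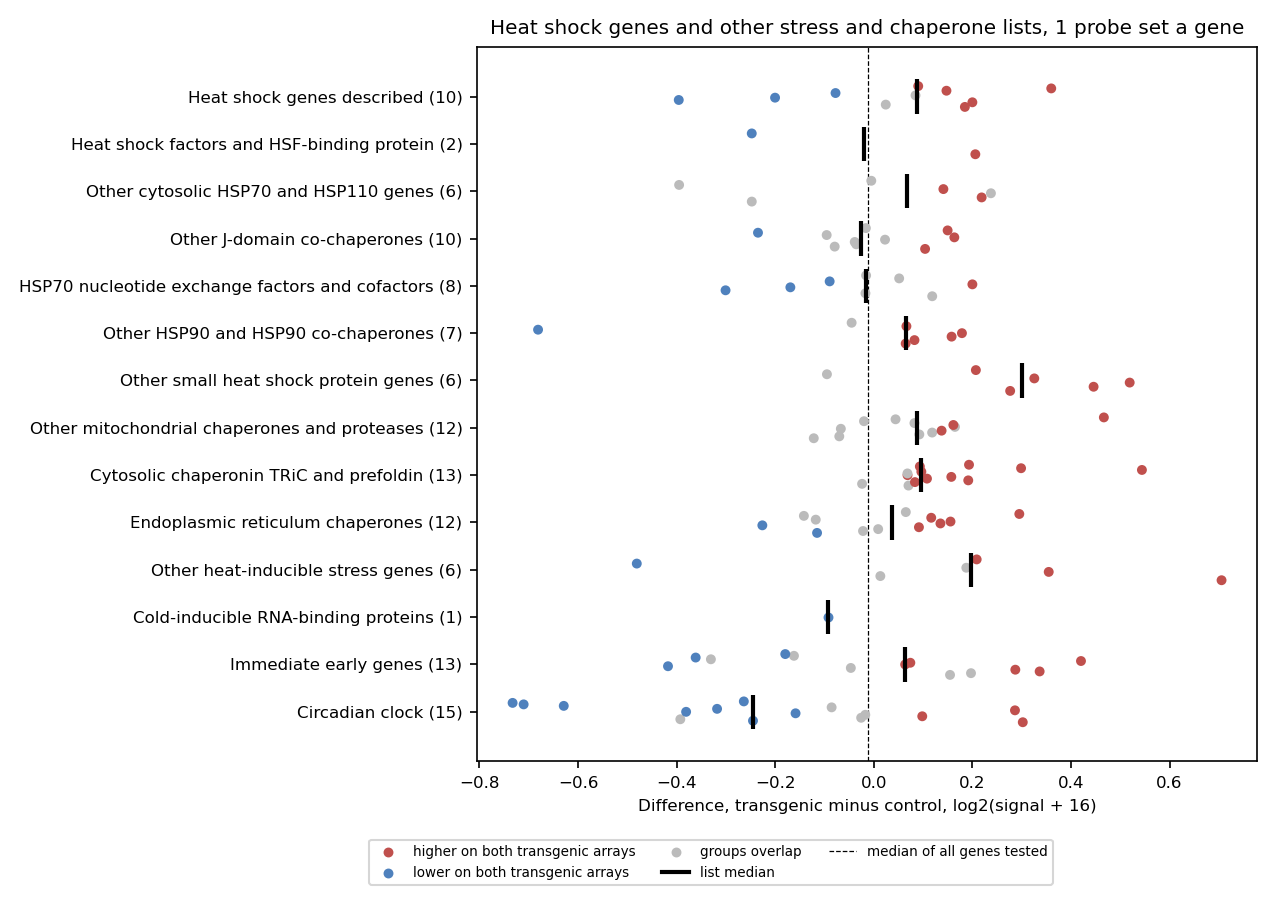
Difference of each tested gene, by its brightest probe set (x axis, log2 scale), in the 10 heat shock genes and in 13 other lists, with the number of genes in brackets, list medians as bars and the median of all genes as a dashed line. The heat shock genes spread to both sides of 0 around a median of 0.09, and the other listed small heat shock protein genes, without Cryaa, centre on 0.30.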

How the data were processed

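Tissue labelled retina from myocilin transgenic and control mice was profiled on 4 one-colour arrays. The values deposited by the authors are signal intensities on a linear scale, with 1 value per array for every probe set. The software that made them and the genome build are not given in the sources used here. Trimmed means (2% at each end) were 150 on all arrays, so intensities were used as deposited. Gene symbols came from the annotation of the platform. Values were transformed as log2(signal + 16), the 64 array controls were left out, and probe sets above the 40th percentile of mean log2 value (a signal of about 30.0) were tested, 27022 in all. The log2 scale with this pseudocount understates differences of dim probe sets. Control arrays were averaged as technical replicates. limma 3.58.1 in R 4.3.3 was fitted with eBayes and an intensity trend, and two-sided p-values had Benjamini-Hochberg adjustment over all probe sets tested. The fit had 1 residual and 10.3 prior degrees of freedom and assumed that the lone control sample varies like the transgenic samples. The SE and p-values of this fit rest on the spread between the 2 transgenic arrays only, moderated across probe sets, and that spread may be technical. The difference between the 2 averaged control arrays does not enter them. Precision is limited by having 4 arrays. On simulated data drawn with this design, false calls were more frequent than the threshold allows, most of all in runs where the estimated prior degrees of freedom came out high. Calls over all probe sets, and the shares given for them, are therefore uncertain.

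The heat shock genes and the other lists were chosen with earlier results of these data known. All probe sets of the 10 genes are named, and of each other list up to 4 genes with the largest absolute difference by brightest tested probe set. Second probe sets of named genes, and the genes Hspb7 and Hspb8, were added after their values were seen. Listed symbols without a probe set of their own were not analysed here. Promoter windows came from RefSeq (GRCm38.p6). Alternatives were quantile normalization, median centring, pseudocounts of 1 and 64, no filter or a filter at the 60th percentile, the 4 arrays taken singly, alone or with the replicate block, other moderation, leaving out each array, and the mean over probe sets of a gene. Counts of groups that do not overlap under other scalings were added after seeing the data.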

Additional observations from a re-analysis of the deposited data

How the results depend on the processing

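The 23 probe sets of the 10 heat shock genes gave 184 values under the 8 alternatives that can move a difference (scalings, pseudocounts and left-out arrays), of which 172 kept their direction. The other 6 refit the same values. Signs turned for 6 probe sets close to 0. After quantile normalization Hspa8 stood at −0.079 (1420622_a_at) and −0.12 (1455789_x_at) and Dnajb1 at −0.019 (1416755_at). With each array left out, the difference ran from −0.045 to 0.15 for Hspa8 1420622_a_at, from −0.20 to 0.36 for Hspa8 1431182_at and from −0.028 to 0.20 for Hspa8 1455789_x_at. It ran from −0.054 to 0.22 for Hsph1 1423566_a_at, from −0.054 to 0.10 for Dnajb1 1416755_at and from −0.024 to 0.24 for Hspe1 1422579_at. All probe sets of Hspa1a, Hspa1b, Hspb1, Hsp90aa1, Dnaja1 and Hspd1 that were tested kept their direction in those 8. The median log2 difference of the 10 genes, 0.09 with all arrays, ran from 0.065 to 0.15 with each array left out, the higher value without transgenic array 1, and was 0.032 after quantile normalization and 0.12 after median centring. The cause of these shifts was not tested.

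The count of probe sets past the threshold was 21, with 15 higher and 6 lower. It was 39 after quantile normalization (20 higher, 19 lower), 56 after median centring (47 higher, 9 lower), 135 with all 4 arrays as separate samples, 14 without control array 1 and 33 without control array 2. It was 0 without the filter and 0 without the intensity trend in limma, with 2181 and 1059 at an unadjusted p under 0.05. With the replicate number as a block it was 1740, and 9 heat shock probe sets passed, 6 higher and 3 lower, against 0 in the other tested alternatives. That block treats the technical control arrays as separate samples, and the numbers do not pair them, with a correlation of 0.0955 between the replicate differences of the groups. The prior degrees of freedom, 10.3 as reported, were 21.4 after median centring, 27.3 with the block, 4.63 without the filter and 3.36 without the trend. With 2 transgenic arrays, 1 residual degree of freedom limits every test, and dim probe sets under the filter give levels only. Groups did not overlap for 16 of 23 heat shock probe sets under each of 3 scalings, against 44.7% of all probe sets as deposited, 44.2% after quantile normalization and 43.6% after median centring. They were not all the same probe sets: 10 were higher and 6 lower as deposited, 9 and 7 after quantile normalization, 11 and 5 after median centring. Leaving out a transgenic array gave values but no test.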

Other observations

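Other stress and timing genes, outside the folding systems of the cytosol and mitochondria, held no gene that passed in limma. Endoplasmic reticulum chaperones had a median log2 difference of 0.04 over 12 genes, 7 above 0 and 5 below. Pdia6, a disulfide isomerase, stood at 0.30 ± 0.12 (SE), Hspa5, the HSP70 of that compartment, at 0.16 ± 0.10, its J-domain partner Dnajc3 at −0.23 ± 0.13 and the disulfide isomerase Pdia4 at −0.14 ± 0.14. Of 6 other heat-inducible stress genes 5 stood above 0, with a median of 0.20. Atf3, a stress-induced transcription factor, had 48.0 and 47.5 on transgenic arrays, against 20.4 and 26.0 on control arrays, while Hmox1, the heme oxygenase gene, had 70.0 and 40.7 on transgenic arrays, against 88.9 and 74.6 on control arrays. Gadd45a stood at 0.35 ± 0.17 and Serpinh1, the collagen chaperone HSP47, at 0.21 ± 0.10. Cirbp, a cold-inducible RNA-binding protein gene, stood at −0.09 ± 0.14.

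Immediate early genes went both ways, with a median of 0.06 over 13 genes, 7 above and 6 below 0. Jun had 617 and 683 on transgenic arrays, against 415 and 558 on control arrays, and Egr1 had 309 and 307 on transgenic arrays, against 263 and 220 on control arrays. Fosl2 had 1077 and 1056 on transgenic arrays, against 1464 and 1395 on control arrays, and Klf4 had 3403 and 2674 on transgenic arrays, against 3944 and 3817 on control arrays. Their differences of 0.42, 0.34, −0.42 and −0.36 had adjusted p between 0.363 and 0.703 in limma. Circadian clock genes had a median of −0.25 over 15 genes, with 3 above 0 and 12 below, 0 called at the adjusted threshold, and 4 at an unadjusted p under 0.05, against 8.06% of all genes tested. Per3 had 251 and 201 on transgenic arrays, against 402 and 366 on control arrays, a difference of −0.73 ± 0.17 (adjusted p = 0.297 in limma). Per2 had 92.9 and 84.5 on transgenic arrays, against 176 and 137 on control arrays. Per1 had 103 and 87.7 on transgenic arrays, against 136 and 177 on control arrays, and Bhlhe41, a repressor of the clock, stood at −0.39 ± 0.34 with overlapping groups. Collection times are not given in the sources used here.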
